A study of Mus musculus with 15 samples.

Results

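The transcriptome of cultured mouse lymph node lymphatic endothelial cells (LECs) was compared between a high and a low concentration of the growth factor VEGF-C. The 5 libraries from cells given 100 ng/mL were set against the 5 libraries from cells given 10 ng/mL, which makes 10 of the 15 libraries of the study. All genes were considered, and 17650 of the 45706 genes in the deposited table had enough counts to be tested. The remaining 5 libraries came from unstimulated cells. They place the levels and also entered the fit, where they share in the estimate of the spread behind every p-value. With only the 10 compared libraries in the fit 6619 genes were called. The cells of all 3 groups carried Pdpn and CD31 but not CD45 and came from female C57Bl/6 mice, pooled from cervical, axillary, brachial, inguinal and popliteal nodes. They grew in MEMα medium with 10% fetal bovine serum and antibiotics. Murine VEGF-C, made as a recombinant protein in the human kidney line HEK-293E, was added for 72 h. The labels give neither an age nor a number of mice. Whether the 5 libraries of a group stand for separate cultures is not stated there, and each p-value therefore measures no more than their spread, part or all of which may be technical.

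VEGF-C is the main growth factor of lymphatic vessels. It binds the receptor tyrosine kinase encoded by Flt4 and, once processed, the one encoded by Kdr, with neuropilin-2 (Nrp2) as a co-receptor, and the activated receptors signal through the ERK and PI3K kinases to growth, survival, migration and sprouting. The LECs of a lymph node also guide and restrain immune cells, through chemokines, adhesion molecules and antigen presentation.

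Total estimated counts ranged from 27784906 to 38590841 per library over the 15 libraries. The first principal component of log2 abundance held 64.8% of the variance. Library B of the 100 ng/mL group scored 38.8 on it, against 69.8 to 78.5 for the other 4 libraries of that group. On the second component, which held 12.6%, the lowest scores were those of 100 ng/mL B, unstimulated E and 10 ng/mL D. Mitochondrial transcripts took 1.33 to 1.74% of the counts at 10 ng/mL and 1.26 to 1.77% at 100 ng/mL. Of 24 mitochondrial and heat shock genes tested, 1 was called higher (Hspa1b) and 1 lower (Dnajb1). The Hspa1b call (0.48 ± 0.16, adjusted p = 0.0297) was lost without 10 ng/mL A or E or 100 ng/mL C, D or E (adjusted p = 0.0508 to 0.0719). The endothelial genes Pecam1 and Cdh5 and the lymphatic genes Prox1, Lyve1, Pdpn and Flt4 were expressed in every library. Other defining lymphatic genes were close to absent, since Mmrn1 reached at most 1 count in any library and the chemokine gene Ccl21a at most 4.

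The step from 10 to 100 ng/mL changed 7157 genes, 40.5% of those tested, at an adjusted p under 0.05. Of these, 3513 were higher at 100 ng/mL (19.9%) and 3644 were lower (20.6%). The falls were larger than the rises. The median log2 fold change (100 minus 10 ng/mL) was 0.43 among genes called higher and -0.68 among genes called lower, while the median over all genes tested was 0.0078. At least 2-fold changes numbered 655 up and 1286 down, and at least 4-fold changes 197 up and 410 down. At 16-fold or more the counts were 32 and 35. The 5 libraries of one group did not overlap those of the other in abundance for 4516 genes (25.6%), 2237 of them higher and 2279 lower. Of 13721 protein-coding genes tested, 2859 rose and 3167 fell. Abundance is given in CPM, read counts relative to the library total after the libraries were scaled to each other. A value of CPM after ± is the SD over 5 libraries, and one after ± in a log2 fold change is its standard error (SE).

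**Figure D1:**
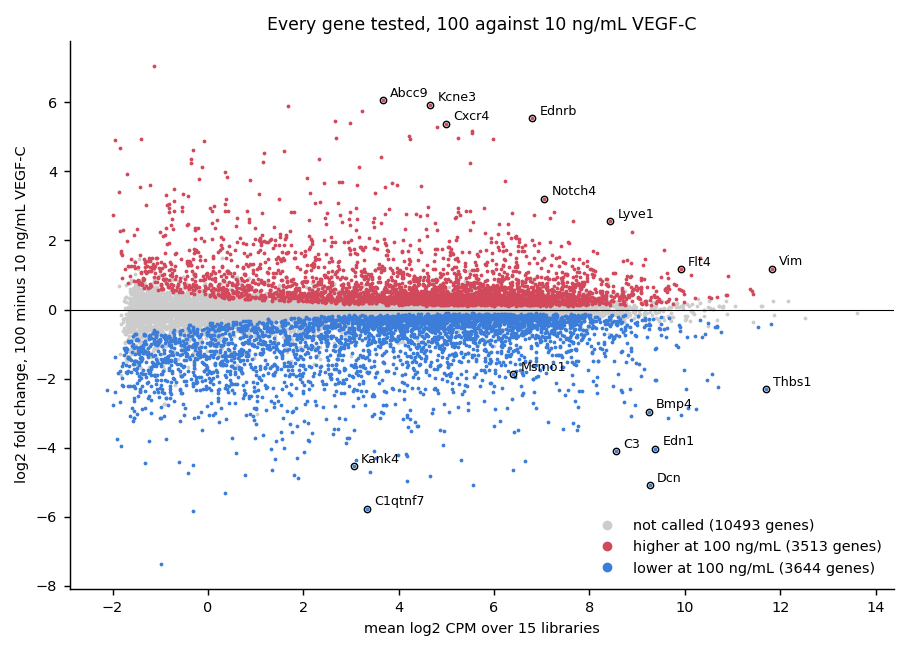
Log2 fold change (100 minus 10 ng/mL VEGF-C, vertical axis) against mean log2 CPM over 15 libraries (horizontal axis), 1 point per gene tested, coloured by call. The 3644 genes called lower hold 1286 changes of at least 2-fold and the 3513 called higher hold 655, and circled genes are described in the text.

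The VEGF-C receptors themselves rose. Of the 5 receptor and co-receptor genes, 3 were called higher (60.0%, beside 19.9% of all genes) and none lower. Flt4 (ENSMUSG00000020357; GRCm38 chromosome 11, 49609263 to 49652739, plus strand) was at 740.1, 689, 676, 706 and 704 CPM in 10 ng/mL libraries A to E and at 1642, 1121, 1758, 1656 and 1702 CPM in 100 ng/mL libraries A to E. Every 100 ng/mL library lay above every 10 ng/mL library, with library B the lowest of its group, and the log2 fold change was 1.16 ± 0.12 (SE, adjusted p = 2.38e-06). Kdr (ENSMUSG00000062960; chromosome 5, 75932827 to 75978458, minus strand) was at 395, 429.6, 355, 444 and 365 CPM at 10 ng/mL and at 995, 741, 1097, 973 and 1017 CPM at 100 ng/mL. Its groups did not overlap either, and it rose by 1.28 ± 0.14 (adjusted p = 3.85e-06). Nrp2 rose by 0.65 ± 0.16 (adjusted p = 0.00544), from 514 ± 28.8 to 805 ± 252 CPM, but 100 ng/mL library B, at 481 CPM, lay within the range of the 10 ng/mL libraries. Flt1, the receptor for placental growth factor and VEGF-A, was not called (-0.23 ± 0.16, adjusted p = 0.262). Nor was Nrp1 (-0.56 ± 0.30, adjusted p = 0.16), whose highest 100 ng/mL library was B at 127 CPM. Without that library Nrp1 was called lower (-0.84, adjusted p = 0.0243).

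Among the 5 ligand genes of the family, 1 rose and 3 fell. Pgf, which encodes placental growth factor, was at 40.4, 32.3, 36.8, 42.2 and 44.1 CPM at 10 ng/mL and at 257, 185, 292, 303 and 278 CPM at 100 ng/mL. It rose 6.73-fold between the groups, which did not overlap (log2 fold change 2.75 ± 0.15, adjusted p = 1.75e-08). The ligand genes of Flt4 were expressed at low levels and fell: Vegfc from 4.92 ± 1.37 to 2.16 ± 0.406 CPM (-1.18 ± 0.19, adjusted p = 0.000193) and Figf, which encodes VEGF-D, from 1.5 ± 0.632 to 0.486 ± 0.0986 CPM (-1.60 ± 0.31, adjusted p = 0.000758). Vegfa fell by 1.19 ± 0.36 on the log2 scale (adjusted p = 0.0159), a call lost without 10 ng/mL library B (adjusted p = 0.0501). Vegfb was not called (-0.04 ± 0.12, adjusted p = 0.809). Per gene length, on the deposited RPKM scale, the median level at 100 ng/mL was 104.9 for Flt4, 93.2 for Pgf and 57.2 for Kdr, and 0.60 for Vegfc.

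Lymphatic identity genes did not move in 1 direction. Of 16 lymphatic transcription factors, 6 rose and 6 fell (median log2 fold change 0.18). Prox1, the regulator that sets lymphatic fate, was at 349, 329.7, 193, 158 and 361 CPM at 10 ng/mL and at 336, 193, 814, 429.9 and 616 CPM at 100 ng/mL. The groups overlapped and Prox1 was not called (0.78 ± 0.39, adjusted p = 0.132), although it was without 100 ng/mL library B (0.98, adjusted p = 0.0462). Its upstream activators Sox18 and Nr2f2 rose by 0.59 ± 0.12 (adjusted p = 0.00101) and 0.87 ± 0.13 (adjusted p = 7.6e-05). Klf2, a factor induced by flow, rose by 2.12 ± 0.37 (adjusted p = 0.00032), from 11.1 ± 4.43 to 48.5 ± 20.2 CPM. The lymphatic valve factors Gata2 and Foxc2 fell by 1.15 ± 0.10 (adjusted p = 4.5e-07) and 0.76 ± 0.11 (adjusted p = 6.86e-05) on the log2 scale, and Hhex fell by 0.88 ± 0.08 (adjusted p = 9.17e-07).

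Lymphatic surface and secreted genes split as well, 10 of 23 higher and 6 lower (median 0.44). Lyve1, the hyaluronan receptor of lymphatic capillaries, was at 112, 89.5, 119, 272 and 92 CPM at 10 ng/mL and at 698, 558, 1193, 826 and 744 CPM at 100 ng/mL. Library D was the highest of the 10 ng/mL group and still lay below all 5 libraries at 100 ng/mL (2.55 ± 0.37, adjusted p = 6.87e-05). Itga9, an integrin subunit of lymphatic valves, rose from 17.4 ± 3.02 to 133 ± 43.6 CPM (2.93 ± 0.23, adjusted p = 2.61e-07). Reln, a matrix glycoprotein made by collecting lymphatic vessels, was at 0.362 to 0.784 CPM at 10 ng/mL and at 6.26, 2.17, 59.3, 12.01 and 33.7 CPM at 100 ng/mL. All 5 values were higher (5.39 ± 0.77, adjusted p = 5.66e-05), but they differed widely among themselves. Pdpn, the gene of the sort marker podoplanin, was not called (0.44 ± 0.30, adjusted p = 0.262). It was called when 100 ng/mL B, 10 ng/mL D and unstimulated E were all left out (0.72, adjusted p = 0.0143). Stab2, a scavenger receptor of sinus endothelium, was called lower (-1.38 ± 0.47, adjusted p = 0.0297) with overlapping groups, and the call was lost without 10 ng/mL A, B or C or 100 ng/mL B, D or E (adjusted p = 0.0513 to 0.0721). Of 20 pan-endothelial genes 8 rose and 6 fell (median 0.15). Cdh5, which encodes VE-cadherin, rose by 0.60 ± 0.07 (adjusted p = 1.08e-05), and Pecam1 was not called (0.09 ± 0.07, adjusted p = 0.279). Vwf, the blood vessel clotting factor gene, fell from 45.2 ± 17.8 to 5.85 ± 8.02 CPM (-2.96 ± 0.61, adjusted p = 0.00129), with 100 ng/mL library B at 20.1 CPM and the other 4 at 1.45 to 3.57 CPM.

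Several of the largest rises among genes whose mean log2 CPM reached 1 were in ion channel genes. Of 21 potassium channel subunit genes tested, 10 rose and 6 fell (median 0.96). Kcnj8 and Abcc9 encode the pore and the regulatory subunit of the ATP-sensitive potassium channel of vascular cells. They lie side by side on chromosome 6, Kcnj8 at 142564837 to 142571614 and Abcc9 at 142587862 to 142702315, both on the minus strand. Kcnj8 was at 0.334, 0.548, 0.371, 1.09 and 0.201 CPM at 10 ng/mL and at 43.3, 17.3, 19.5, 25.9 and 31.9 CPM at 100 ng/mL. Abcc9 was at 0.251, 0.304, 0.875, 1.09 and 0.23 CPM and at 67.6, 27.5, 24.2, 27.5 and 39.7 CPM, in the same order. Both passed from about 1 CPM or less to more than 17 CPM in every library, with log2 fold changes of 5.75 ± 0.38 (adjusted p = 6.3e-08) and 6.06 ± 0.43 (adjusted p = 9.23e-08). Abcc8 and Kcnj11, which encode the subunits of the related channel of pancreatic beta cells, reached at most 4 counts in any library. Kcne3, an accessory subunit, and Kcnq1, a pore subunit with which it can assemble, rose by 5.93 ± 0.34 (adjusted p = 2.03e-08) and 4.37 ± 0.30 (adjusted p = 6.58e-08). Kcne3 was at 1.198, 1.096, 0.875, 1.204 and 1.70 CPM at 10 ng/mL and at 115, 67.8, 32.3, 100.06 and 55.6 CPM at 100 ng/mL. Kcnq1 overlaps the noncoding transcript Kcnq1ot1 on the other strand, and its value is uncertain to that extent.

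Of 29 calcium and sodium entry genes 17 rose and 5 fell (median 0.43). Piezo2, a stretch-activated channel gene, was at 11.4, 17.5, 11.6, 16.2 and 17.8 CPM at 10 ng/mL and at 227, 117, 215, 194 and 223 CPM at 100 ng/mL. Its groups did not overlap, with library B the lowest at 100 ng/mL, and it rose from 14.9 ± 3.14 to 195 ± 45.5 CPM (3.71 ± 0.22, adjusted p = 2.24e-08). The store-operated channel gene Orai2 rose by 0.71 ± 0.08 (adjusted p = 7.26e-06), and Stim1, the calcium sensor that opens such channels, fell by 0.73 ± 0.05 (adjusted p = 9.06e-08).

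**Figure D2:**
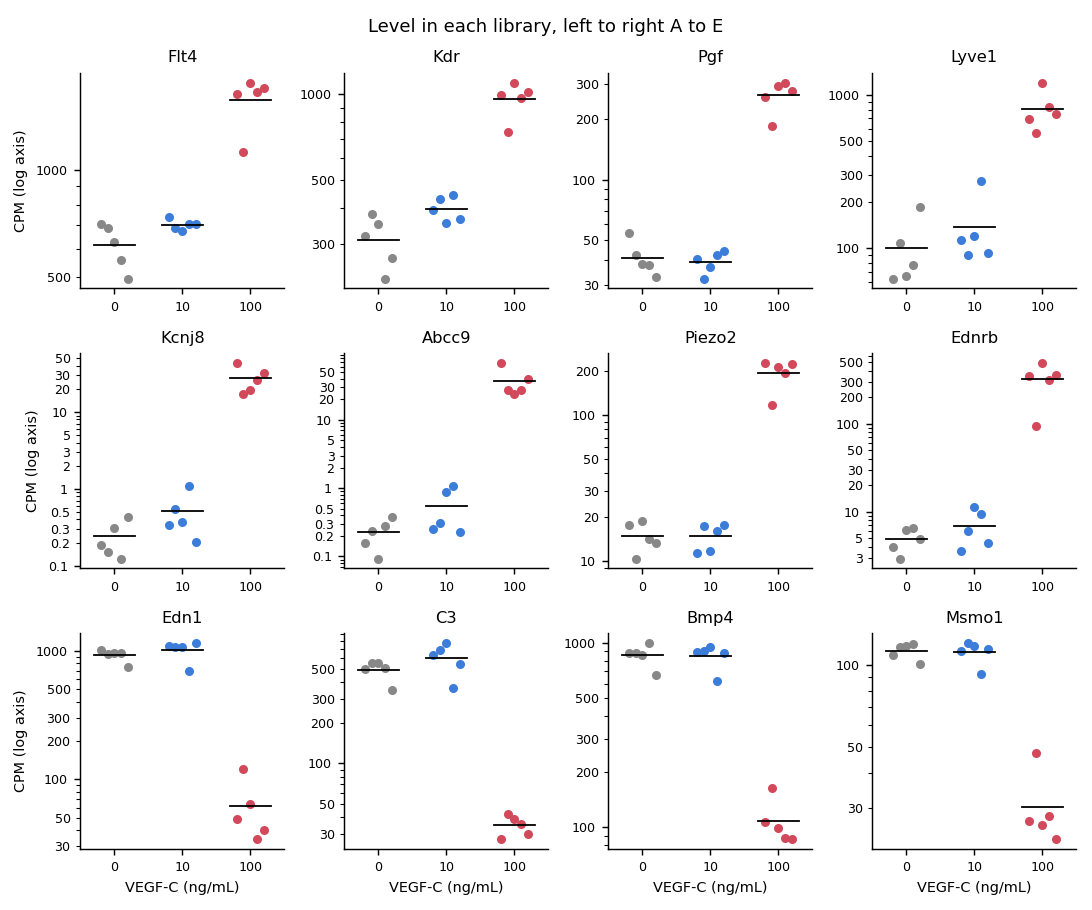
Abundance in CPM (vertical log axes) of 12 genes in each library, by VEGF-C concentration in ng/mL (horizontal axes); points are libraries A to E from left to right, and bars are group means. Kcnj8, Abcc9, Piezo2 and Ednrb lie far higher in all 5 libraries at 100 ng/mL than at 0 or 10 ng/mL, Edn1, C3, Bmp4 and Msmo1 far lower, and library B of the 100 ng/mL group is the closest of its group to 10 ng/mL in Flt4, Kdr, Pgf, Lyve1, Kcnj8, Piezo2, Ednrb, Edn1, C3, Bmp4 and Msmo1.

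A receptor and its ligand moved in opposite directions in the endothelin and CXCL12 pairs. Ednrb, the endothelin B receptor gene (ENSMUSG00000022122; chromosome 14, 103814625 to 103844402, minus strand), was at 3.57, 6.09, 11.2, 9.46 and 4.43 CPM at 10 ng/mL and at 354, 93.4, 492, 315 and 361 CPM at 100 ng/mL. Edn1, which encodes its ligand endothelin-1, was at 1082, 1075, 1072, 689 and 1141 CPM at 10 ng/mL and at 49.1, 119, 64.3, 34.4 and 40.3 CPM at 100 ng/mL. Neither gene's groups overlapped, and the log2 fold changes were 5.53 ± 0.45 (adjusted p = 3.06e-07) for Ednrb and -4.04 ± 0.30 (adjusted p = 1.42e-07) for Edn1. Cxcr4, a chemokine receptor that marks sprouting endothelial cells, rose from 2.17 ± 0.672 to 91.3 ± 22.03 CPM (5.39 ± 0.23, adjusted p = 8.38e-09). Its ligand gene Cxcl12 was at 96.0, 85.6, 133, 143 and 95.9 CPM at 10 ng/mL and at 17.7, 67.5, 5.24, 7.48 and 6.29 CPM at 100 ng/mL (-2.41 ± 0.58, adjusted p = 0.00396). The groups did not overlap, but library B, at 67.5 CPM, lay close to the lowest 10 ng/mL library, and the other 4 were at 17.7 CPM or less. Ackr3, a scavenging receptor for the same ligand, rose by 1.58 ± 0.24 (adjusted p = 0.000111).

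Across 33 endothelial G protein-coupled receptors and their regulators, 10 rose (30.3%) and 9 fell (27.3%), beside 19.9% and 20.6% of all genes (median 0.17). S1pr1, the main sphingosine-1-phosphate receptor of endothelium, rose by 0.57 ± 0.07 (adjusted p = 1.57e-05), and S1pr2, another receptor for that lipid, fell by 0.94 ± 0.12 (adjusted p = 1.48e-05). Lpar1, a lysophosphatidic acid receptor, fell from 32.7 ± 11.5 to 1.16 ± 0.925 CPM (-4.83 ± 0.40, adjusted p = 3.96e-07).

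Of 20 genes of tip cells, the leading cells of a vascular sprout, 13 were higher (65.0%, beside 19.9% of all genes). Another 2 were lower (10.0%, beside 20.6%), and the median was 2.00. The list was chosen with earlier results of these data known, so its share is not independent of them. Stc1, a secreted glycoprotein, was at 2.73, 3.56, 2.78, 5.10 and 4.20 CPM at 10 ng/mL and at 177, 121, 83.5, 169 and 112 CPM at 100 ng/mL. It rose 36.1-fold (5.17 ± 0.25, adjusted p = 1.33e-08). Nid2, a basement membrane linker protein gene, rose from 51.1 ± 10.6 to 362 ± 88.3 CPM (2.82 ± 0.22, adjusted p = 1.73e-07), and Unc5b, a netrin and Robo4 receptor gene, from 216 ± 35.2 to 1020.4 ± 312 CPM (2.24 ± 0.22, adjusted p = 2.09e-06). Other markers of tip cells did not pass the test. Apln, the gene of the peptide apelin, was at 367, 237, 369, 507 and 321 CPM at 10 ng/mL and at 640.0, 1169, 129.5, 469 and 183 CPM at 100 ng/mL, so that its 100 ng/mL libraries lay on both sides of the 10 ng/mL group (0.52 ± 0.45, adjusted p = 0.383). Angpt2 was not called (0.09 ± 0.29, adjusted p = 0.822), and nor was Esm1 (0.39 ± 0.30, adjusted p = 0.321), where library B held the highest of the 5 values.

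The Notch pathway, which restrains sprouting, showed rises in 10 of 22 genes and falls in 6 (median 0.51). The endothelial ligand gene Dll4 was at 34.4, 27.2, 23.6, 25.5 and 29.5 CPM at 10 ng/mL and at 248, 206, 114, 239 and 161 CPM at 100 ng/mL (2.79 ± 0.24, adjusted p = 5.23e-07). Notch4, an endothelial receptor of the pathway, rose from 35.6 ± 16.1 to 327 ± 114 CPM (3.20 ± 0.31, adjusted p = 1.74e-06), and the target gene Hes1 from 21.7 ± 2.11 to 61.0 ± 7.39 CPM (1.49 ± 0.09, adjusted p = 2.52e-08). In none of these genes did the groups overlap. The ligand gene Jag1 was called lower (-0.59 ± 0.21, adjusted p = 0.0357), a call lost without 10 ng/mL A, B or C or 100 ng/mL C, D or E (adjusted p = 0.0528 to 0.0886).

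Guidance genes, which steer axons and vessels, rose in 12 of 40 cases (30.0%) and fell in 11 (27.5%), beside 19.9% and 20.6% of all genes (median 0.10). Sema6d and Sema4c, semaphorins of the cell membrane, rose by 2.73 ± 0.19 (adjusted p = 9.1e-08) and 2.46 ± 0.17 (adjusted p = 8.95e-08). Plxnd1, the semaphorin receptor typical of endothelium, rose from 812 ± 64.5 to 2289.6 ± 351 CPM (1.5 ± 0.11, adjusted p = 1.04e-07), while Plxnb2, another plexin gene, fell from 568 ± 41.0 to 227 ± 24.3 CPM (-1.32 ± 0.07, adjusted p = 1.61e-08).

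Other large rises within that limit on abundance belong to none of these groups. Btnl9, a butyrophilin-like surface protein gene, rose from 5.79 ± 3.26 to 178 ± 69.3 CPM (4.94 ± 0.40, adjusted p = 2.74e-07). Gap43, a growth cone protein gene, rose from 3.41 ± 2.11 to 108 ± 29.8 CPM (4.98 ± 0.39, adjusted p = 1.99e-07), and Rapgef4, an exchange factor for the junction GTPase Rap that cyclic AMP activates, from 0.576 ± 0.475 to 18.3 ± 6.97 CPM (4.98 ± 0.46, adjusted p = 9.72e-07). Mgll, the enzyme that breaks down monoacylglycerols, rose by 5.04 ± 0.32 (adjusted p = 4.11e-08), Kbtbd11 by 5.12 ± 0.35 (adjusted p = 6.69e-08) and the membrane metalloproteinase gene Mmp15 by 5.28 ± 0.45 (adjusted p = 4.97e-07). In all 6 genes the lowest 100 ng/mL library lay above the highest 10 ng/mL library.

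Complement and acute-phase genes, which encode secreted proteins of innate defence, fell together. Of 24 tested, 20 fell (83.3%, beside 20.6% of all genes), 1 rose (Pros1) and the median log2 fold change was -2.48. C3, the central component (ENSMUSG00000024164; chromosome 17, 57203970 to 57228136, minus strand), was at 637, 692, 774, 364 and 546 CPM at 10 ng/mL and at 27.7, 42.5, 38.6, 35.7 and 30.0 CPM at 100 ng/mL. It fell 17.3-fold (-4.11 ± 0.21, adjusted p = 1.61e-08), with library D the lowest of the 10 ng/mL group and still far above the other group. Cfb, which encodes the protease of the alternative pathway, fell by 2.56 ± 0.18 (adjusted p = 7.52e-08). Lcn2, an iron-binding acute-phase protein gene, fell from 98.6 ± 13.1 to 18.7 ± 5.47 CPM (-2.40 ± 0.16, adjusted p = 6.37e-08).

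Neighbouring protease inhibitor genes of the Serpina3 cluster on chromosome 12 fell alike. Serpina3g (104236245 to 104241939) was at 144, 156, 174, 141 and 147 CPM at 10 ng/mL and at 4.95, 13.4, 9.83, 3.36 and 5.21 CPM at 100 ng/mL. Serpina3f (104214544 to 104221129) and Serpina3i (104263122 to 104269372) had log2 fold changes of -4.35 ± 0.24 (adjusted p = 1.61e-08) and -3.94 ± 0.23 (adjusted p = 2.03e-08), beside -4.38 ± 0.28 (adjusted p = 5.09e-08) for Serpina3g. The copies of this cluster are close in sequence, and the sources used here do not give how reads were shared between them, so their separate values are uncertain. Colec11, a collectin that starts the lectin pathway, and C1qtnf7, a protein with a complement-like domain, were among the 15 largest falls without overlap of genes whose mean log2 CPM reached 1. Colec11 fell from 12.8 ± 3.28 to 0.486 ± 0.389 CPM (-4.70 ± 0.38, adjusted p = 2.8e-07). C1qtnf7 fell from 15.7 ± 7.45 to 0.282 ± 0.116 CPM (-5.77 ± 0.58, adjusted p = 2.34e-06).

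Antigen presentation genes of class I fell, and so did most of the few class II genes with enough counts to be tested. Of 24 genes of class I presentation 19 fell and none rose (median -0.51), and of 6 genes of class II presentation 5 fell and none rose (median -0.77). B2m, the constant chain of class I molecules, was at 3550.2, 3193, 3861, 2703 and 3455 CPM at 10 ng/mL and at 2432, 2311, 2631, 2356 and 2088 CPM at 100 ng/mL, a small fall without overlap (-0.50 ± 0.11, adjusted p = 0.00152). Tap2, a peptide transporter subunit gene, fell by 0.67 ± 0.06 (adjusted p = 6.6e-07). H2-Q4 and H2-Q6, non-classical class I genes with near-identical copies, fell by 1.48 ± 0.14 (adjusted p = 1.28e-06) and 1.65 ± 0.16 (adjusted p = 1.63e-06). Class II genes were scarce. The class II molecule genes H2-Aa, H2-Ab1 and H2-Eb1, and Ciita, had at most 22 counts in any library and were not tested. H2-DMb1, a chaperone of peptide loading, was at 0.392 ± 0.104 CPM at 10 ng/mL and 0.0965 ± 0.0462 CPM at 100 ng/mL (-1.97 ± 0.39, adjusted p = 0.000995). With at least 10 CPM required in 5 libraries, 1 class II gene was tested and it was not called.

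Interferon response genes mostly fell, with a few that rose. Of 44 interferon-stimulated genes 26 fell and 4 rose (median -0.41), and of 19 interferon-induced GTPases 11 fell and 2 rose (median -0.67). To show the sequence in which interferon-activated factors bind, the promoter windows of 3 of these genes are printed from RefSeq (build GRCm38.p6), each 300 bases from 250 before to 50 after the gene start, 5′ to 3′ on the gene's strand. Capitals mark the interferon-stimulated response motif, which was searched as GAAA, any 2 bases and GAAA on both strands, and which reads as its reverse complement in all 3 windows. Ifit3 and Gbp5 stand for genes that fell, and Rsad2 for a gene that rose and carries the same motif.
Ifit3 (chr19:34583279-34583578, plus strand): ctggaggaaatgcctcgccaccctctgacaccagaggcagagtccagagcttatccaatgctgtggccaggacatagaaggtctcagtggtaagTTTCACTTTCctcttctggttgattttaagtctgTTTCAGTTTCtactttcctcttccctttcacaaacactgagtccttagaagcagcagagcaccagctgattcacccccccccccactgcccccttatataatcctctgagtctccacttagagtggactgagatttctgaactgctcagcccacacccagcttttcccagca
Gbp5 (chr3:142496684-142496983, plus strand): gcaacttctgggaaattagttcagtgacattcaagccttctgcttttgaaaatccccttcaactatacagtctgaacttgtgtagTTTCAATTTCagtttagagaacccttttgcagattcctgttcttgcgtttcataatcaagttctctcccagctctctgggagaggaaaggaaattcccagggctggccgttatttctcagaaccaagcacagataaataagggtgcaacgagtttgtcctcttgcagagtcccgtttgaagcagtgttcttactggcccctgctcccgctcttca
Rsad2 (chr12:26456403-26456702, minus strand): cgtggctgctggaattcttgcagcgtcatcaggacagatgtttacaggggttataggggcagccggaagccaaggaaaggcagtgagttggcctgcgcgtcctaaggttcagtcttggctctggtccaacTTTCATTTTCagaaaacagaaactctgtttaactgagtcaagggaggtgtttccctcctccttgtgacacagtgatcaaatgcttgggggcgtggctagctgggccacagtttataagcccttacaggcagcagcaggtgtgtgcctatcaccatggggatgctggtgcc

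Ifit3, an antiviral RNA-binding protein gene, was at 191, 151, 301, 173 and 204 CPM at 10 ng/mL and at 75.2, 79.4, 54.7, 69.8 and 39.9 CPM at 100 ng/mL (-1.68 ± 0.21, adjusted p = 1.85e-05). Its near-identical neighbour Ifit3b had almost the same value in every library (-1.67 ± 0.21, adjusted p = 1.81e-05), so the pair cannot be told apart in these counts. Gbp5, a guanylate-binding GTPase gene, was at 105, 109.9, 126, 92.2 and 113 CPM at 10 ng/mL and at 12.2, 14.2, 23.3, 12.6 and 12.6 CPM at 100 ng/mL (-2.86 ± 0.16, adjusted p = 1.75e-08). It showed the deepest fall of either list. Ifi47 and Iigp1, GTPases that attack the vacuoles of intracellular parasites, fell by 1.78 ± 0.12 (adjusted p = 5.27e-08) and 1.5 ± 0.12 (adjusted p = 1.96e-07), and Zbp1, a sensor of nucleic acids in the Z form, by 1.79 ± 0.18 (adjusted p = 2.32e-06).

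Against this direction Rsad2, which encodes the antiviral enzyme viperin, was at 56.9, 44.5, 90.4, 82.2 and 67.6 CPM at 10 ng/mL and at 250.3, 185, 143, 233 and 149 CPM at 100 ng/mL. It rose without overlap (1.49 ± 0.20, adjusted p = 3.16e-05). Its neighbour on chromosome 12, Cmpk2, a mitochondrial nucleotide kinase gene, was called higher with overlapping groups (0.40 ± 0.13, adjusted p = 0.0191), and the call was lost without 10 ng/mL B or 100 ng/mL A or D (adjusted p = 0.0526 to 0.0562). Irf8, an interferon regulatory factor, rose by 0.88 ± 0.16 (adjusted p = 0.000465), and Gbp9 by 0.34 ± 0.10 (adjusted p = 0.0116). The motif was present in 11 of the 20 windows found for interferon-stimulated genes called lower (55.0%), in 8 of 9 for the GTPases called lower (88.9%) and in 1 of 4 for the interferon-stimulated genes called higher. Over all 27025 windows of the table the share was 3.99%. These matches describe letters in a short window and not bound sites. The lists were chosen as genes that interferon induces, and the share was not taken for their members that were not called. The shares therefore do not relate the motif to the fall.

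Of 17 chemokine genes 10 fell and none rose (median -0.93). Cxcl16, a membrane-bound chemokine gene, was at 48.2, 46.1, 57.3, 33.2 and 44.0 CPM at 10 ng/mL and at 24.1, 21.9, 20.3, 18.8 and 22.4 CPM at 100 ng/mL (-1.09 ± 0.15, adjusted p = 3.66e-05). The neutrophil attractant gene Cxcl1 fell from 6.63 ± 2.27 to 2.10 ± 1.12 CPM (-1.66 ± 0.33, adjusted p = 0.00103). Ccl2, a monocyte attractant and 1 of the more abundant chemokine genes here, was not called (-0.45 ± 0.19, adjusted p = 0.076), though it was without 100 ng/mL library A (-0.58, adjusted p = 0.0292) and by the DESeq2 test (adjusted p = 0.0497).

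Cytokine genes fell in 11 of 24 cases and rose in 3 (median -0.74). Csf1, the macrophage colony-stimulating factor gene, was at 1856, 1812, 1825, 1141 and 1754 CPM at 10 ng/mL and at 228, 348, 195, 196 and 171 CPM at 100 ng/mL. It fell 7.37-fold without overlap (-2.88 ± 0.19, adjusted p = 5.09e-08). Csf3, the granulocyte colony-stimulating factor gene, rose from a low level, from 1.22 ± 0.328 to 8.63 ± 4.04 CPM (2.82 ± 0.33, adjusted p = 9.53e-06). Tgfb1, a suppressive cytokine gene, was at 104, 99.3, 98.9, 119 and 88.2 CPM at 10 ng/mL and at 330.1, 272, 214, 358 and 300.1 CPM at 100 ng/mL (1.53 ± 0.13, adjusted p = 6.52e-07). Kitl, the stem cell factor gene, was called higher (1.87 ± 0.39, adjusted p = 0.00138), but its 100 ng/mL libraries ran from 8.75 to 58.9 CPM and library C lay within the 10 ng/mL range.

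NF-kB response genes, which inflammatory signals switch on, fell in 14 of 22 cases and rose in 3 (median -0.86). Icam1, the adhesion molecule on which leukocytes arrest, was at 565, 556, 632, 509 and 547 CPM at 10 ng/mL and at 162, 251, 208, 179 and 177 CPM at 100 ng/mL (-1.53 ± 0.10, adjusted p = 6.34e-08). Tnfaip3, a feedback inhibitor of the pathway, fell by 1.83 ± 0.16 (adjusted p = 6.33e-07), and Ripk2, an adaptor kinase of bacterial sensing, by 1.04 ± 0.08 (adjusted p = 1.96e-07). Cd40, a receptor gene of the same list, rose from 0.415 ± 0.227 to 3.03 ± 1.44 CPM (2.86 ± 0.43, adjusted p = 9.33e-05). Leukocyte adhesion genes as a list fell in 14 of 27 cases and rose in 4 (median -0.23). Among them Selp, which encodes P-selectin, fell from 758 ± 145 to 253 ± 49.4 CPM (-1.58 ± 0.16, adjusted p = 2.23e-06).

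Of 19 genes by which stromal cells restrain T cells 4 were higher and 4 lower (median -0.35), each a share of 21.1% and close to the 19.9% and 20.6% of all genes, with 8 lower when 100 ng/mL library B was left out. Nos2, the inducible nitric oxide synthase gene, was at 1.89, 1.46, 2.2, 2.3 and 1.73 CPM at 10 ng/mL and at 21.6, 11.7, 7.31, 14.7 and 11.6 CPM at 100 ng/mL (2.80 ± 0.24, adjusted p = 4.5e-07). Nos3, the endothelial synthase gene, rose by 0.89 ± 0.11 (adjusted p = 1.23e-05) and Cd276, a B7-family surface protein gene, by 1.13 ± 0.11 (adjusted p = 1.63e-06). Cd200, which quiets myeloid cells, fell by 0.97 ± 0.08 (adjusted p = 4.33e-07). All 4 had groups that did not overlap.

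Cholesterol synthesis and uptake genes fell almost without exception. Of 26 tested 24 fell (92.3%, beside 20.6% of all genes), none rose, and the median log2 fold change was -0.93. Msmo1, a demethylating enzyme of the late pathway, was at 112, 119.8, 117, 92.7 and 114 CPM at 10 ng/mL and at 26.8, 47.6, 25.9, 27.9 and 23.1 CPM at 100 ng/mL (-1.88 ± 0.16, adjusted p = 4.5e-07). Library D was the lowest of the 10 ng/mL group and library B the highest of the 100 ng/mL group, and the groups stayed apart. Idi1, which makes the isoprenoid building block, fell by 1.87 ± 0.22 (adjusted p = 9.96e-06) and Tm7sf2, a sterol reductase gene, by 1.14 ± 0.09 (adjusted p = 2.04e-07). Fdft1, the first committed enzyme of sterol synthesis, fell from 33.5 ± 2.10 to 16.6 ± 1.39 CPM (-1.01 ± 0.06, adjusted p = 3.32e-08), although it overlaps Ctsb on the other strand, which rose.

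Hmgcs1, which makes the precursor of the pathway, fell from 131 ± 15.7 to 62.7 ± 14.3 CPM (-1.07 ± 0.14, adjusted p = 2.11e-05). Its RefSeq promoter window (GRCm38.p6) is printed as the only one of 17 windows found for called members that held the sterol response motif TCACNCCAC, searched on both strands and marked in capitals. Among all promoter windows the share with it was 1.44%.
Hmgcs1 (chr13:119690101-119690400, plus strand): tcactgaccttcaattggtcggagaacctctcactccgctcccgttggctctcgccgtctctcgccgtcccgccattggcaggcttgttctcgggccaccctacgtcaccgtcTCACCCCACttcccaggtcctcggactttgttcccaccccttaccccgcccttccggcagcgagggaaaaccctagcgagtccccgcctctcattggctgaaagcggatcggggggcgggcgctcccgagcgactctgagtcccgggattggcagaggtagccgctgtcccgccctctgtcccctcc

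Of 11 cholesterol efflux genes 2 rose (18.2%, close to the 19.9% of all genes) and 5 fell (45.5%, beside 20.6%), with a median of -0.15. Abcg1, a sterol exporter gene, was at 11.1, 11.9, 16.9, 23.3 and 10.0 CPM at 10 ng/mL and at 137, 90.0, 89.2, 115 and 102 CPM at 100 ng/mL, a rise without overlap (2.87 ± 0.24, adjusted p = 3.71e-07). Its relative Abca1 was not called (0.37 ± 0.20, adjusted p = 0.149) but was without 100 ng/mL library B (0.51, adjusted p = 0.0236). Apoe, the lipid carrier gene, fell from 1488 ± 390.1 to 205 ± 40.2 CPM (-2.86 ± 0.21, adjusted p = 1.31e-07). Among 27 fatty acid genes 8 rose (29.6%, beside 19.9% of all genes) and 4 fell (14.8%, below the 20.6% of all genes), with a median of 0.01. The carrier gene Fabp5 rose from 25.8 ± 3.93 to 82.4 ± 12.9 CPM (1.68 ± 0.18, adjusted p = 3.73e-06), and Gpihbp1, which holds lipoprotein lipase at the vessel surface, from 2.01 ± 0.581 to 12.6 ± 4.40 CPM (2.65 ± 0.30, adjusted p = 7.19e-06).

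**Figure D3:**
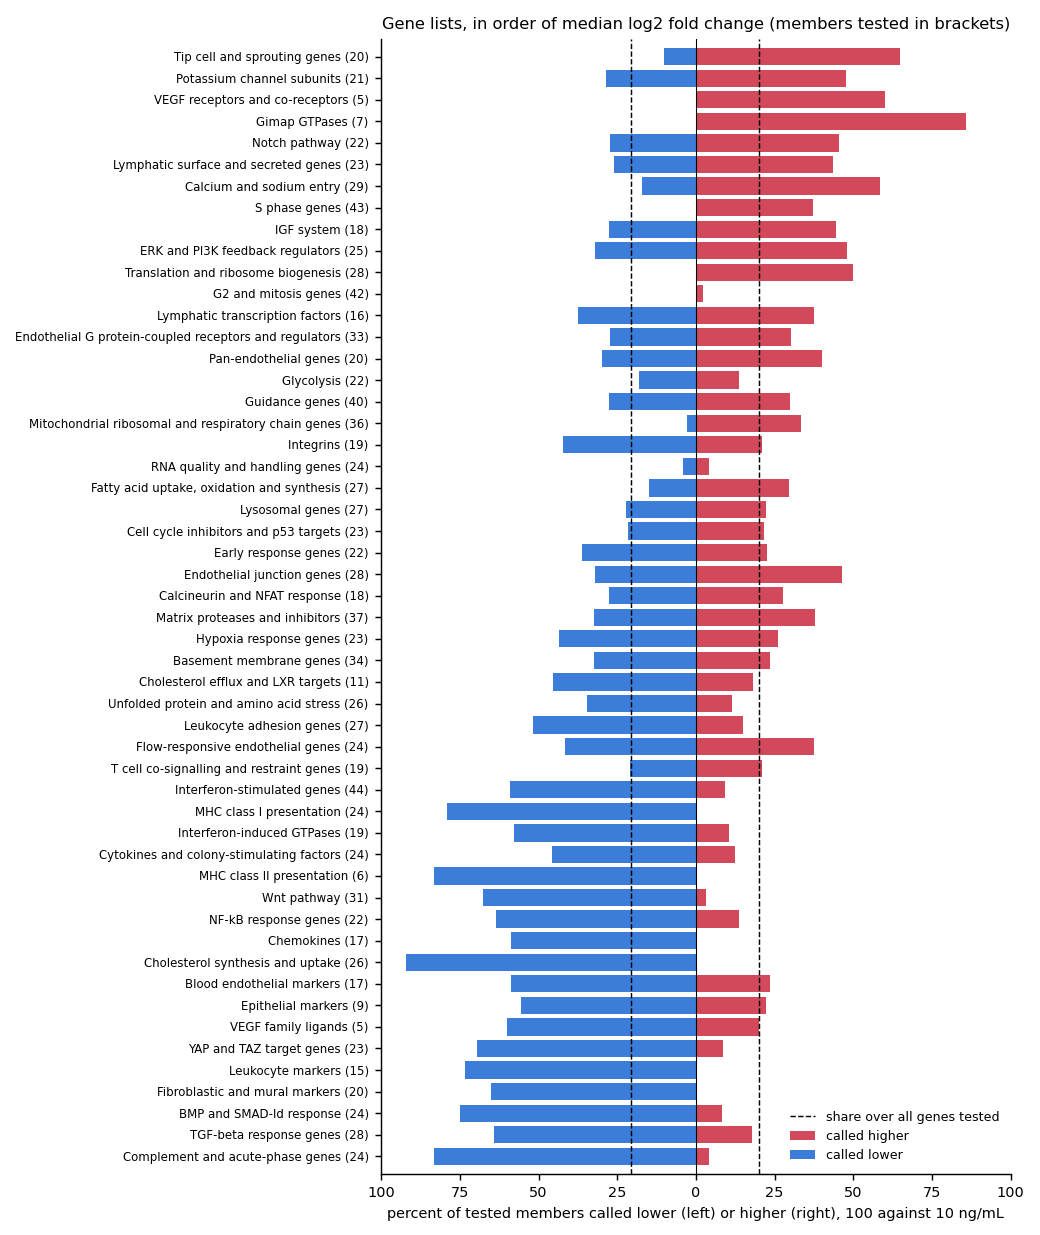
Percent of tested members called lower (left) or higher (right) at 100 against 10 ng/mL for 52 gene lists, in order of median log2 fold change, with the number tested in brackets. Dashed lines give the shares over all genes tested, 20.6% lower and 19.9% higher, and the cholesterol synthesis list, with 92.3% of its members called lower, extends farthest to the left.

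Most genes of the BMP list fell, and the falls included ligands, receptors such as Bmpr2 and Acvr1, and secreted modulators such as Grem1 and Bmper. The ligand gene Bmp2 was not called. Of 24 genes 18 fell and 2 rose (median -1.47). Bmp4 (ENSMUSG00000021835; chromosome 14, 46383520 to 46390669, minus strand) was at 896, 903, 948, 623 and 881 CPM at 10 ng/mL and at 107, 164, 99.5, 87.8 and 86.8 CPM at 100 ng/mL. It fell 7.81-fold (-2.96 ± 0.18, adjusted p = 3.19e-08). Bmp6 fell by 2.66 ± 0.22 (adjusted p = 3.32e-07) and Bmp7, at a low level, by 2.54 ± 0.23 (adjusted p = 8.63e-07). The receptor-regulated transducers Smad1 and Smad9 rose by 0.52 ± 0.11 (adjusted p = 0.00177) and 0.30 ± 0.09 (adjusted p = 0.0126). Id1 and Id3, direct target genes of BMP signalling, were not called, with log2 fold changes of -0.01 ± 0.19 (adjusted p = 0.968) and -0.06 ± 0.07 (adjusted p = 0.531).

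TGF-beta response genes fell in 18 of 28 cases and rose in 5 (median -1.53). Acta2, the smooth muscle actin gene, was at 174, 249, 176, 169.8 and 268 CPM at 10 ng/mL and at 7.85, 47.9, 12.7, 8.03 and 17.1 CPM at 100 ng/mL (-3.47 ± 0.43, adjusted p = 1.72e-05). Tgfbi, a secreted matrix protein gene, fell from 31.1 ± 4.60 to 5.73 ± 0.824 CPM (-2.44 ± 0.14, adjusted p = 2.03e-08), and Ltbp1, which stores latent TGF-beta in the matrix, from 96.2 ± 5.19 to 27.7 ± 10.35 CPM (-1.79 ± 0.18, adjusted p = 2.69e-06). Zeb1, a transcription factor of mesenchymal change, rose by 0.57 ± 0.05 (adjusted p = 5.7e-07), and Cdkn2b, a cell cycle inhibitor gene that TGF-beta induces, by 1.02 ± 0.12 (adjusted p = 1.36e-05).

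Targets of the YAP and TAZ coactivators, which respond to cell stretch and density, fell in 16 of 23 cases and rose in 2 (median -1.20). Cyr61, a matricellular protein gene also on the TGF-beta list, was at 1291, 1276, 1481, 1196 and 1355 CPM at 10 ng/mL and at 147, 365, 97.4, 103 and 76.6 CPM at 100 ng/mL (-3.06 ± 0.35, adjusted p = 7.3e-06). Library B held the highest value of its group and lay below the lowest of the other. Crim1, a BMP-binding membrane protein gene, fell by 2.03 ± 0.15 (adjusted p = 1.44e-07) and Ajuba, an adaptor of the Hippo kinases, by 1.16 ± 0.08 (adjusted p = 7.74e-08). In the Wnt pathway 21 of 31 genes fell and 1 rose (median -0.86). The receptor gene Fzd8 fell by 0.86 ± 0.09 (adjusted p = 3.45e-06), and the secreted modulators Dkk3 and Sfrp5 had log2 fold changes of -1.86 ± 0.23 (adjusted p = 1.7e-05) and -2.41 ± 0.30 (adjusted p = 1.91e-05).

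Markers of fibroblastic and mural cells moved in the same direction as these lists. Of 20 tested 13 fell, none rose, and 7 were not called, with log2 fold changes over the list from -5.09 to 0.63. Those not called were Col6a1, Col6a2, Fap, Mylk, Rgs5, Cspg4 (-1.21, adjusted p = 0.112) and Des (-1.25, adjusted p = 0.0549). Both of the last were called lower without 10 ng/mL library C (adjusted p = 0.0486 and 0.0359), and Des also without 10 ng/mL D (adjusted p = 0.0201), with only the 10 compared libraries (adjusted p = 0.0455) and by the DESeq2 test (adjusted p = 0.0241). Lum, a further fibroblast gene, had at most 6 counts in any library and was not tested. The summed level of the list was 3812, 5143, 3187, 3230 and 4887 CPM at 10 ng/mL and 1251, 1766, 1215, 1229 and 1406 CPM at 100 ng/mL, without overlap. In unstimulated cells it was 3730 to 5407 CPM. Dcn, the fibroblast proteoglycan gene decorin, was at 1198, 1413, 759, 569 and 1337 CPM at 10 ng/mL and at 19.4, 61.9, 31.6, 16.5 and 25.05 CPM at 100 ng/mL (-5.09 ± 0.43, adjusted p = 3.98e-07). In bulk RNA fewer cells of a type and less RNA per cell cannot be told apart, and the part of such cells in the falls of the BMP, TGF-beta, YAP and Wnt lists was not tested.

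Leukocyte markers also fell, 11 of 15 with none higher (median -1.26), at a low level throughout. Their summed level was 63.4 to 149 CPM at 10 ng/mL and 35.1 to 57.4 CPM at 100 ng/mL. The macrophage genes Aif1 and Lyz2 fell by 1.97 ± 0.22 (adjusted p = 6.37e-06) and 1.61 ± 0.37 (adjusted p = 0.00299). Cd68, Itgam, Coro1a and Cd52 of the same list were not called, and the highest log2 fold change in it was 0.29. Ptprc, the gene of the sort marker CD45, was called lower (-0.82 ± 0.31, adjusted p = 0.0455) from 4.11 ± 1.54 to 2.32 ± 0.595 CPM with overlap, and the call was lost without any 1 of 10 ng/mL B, C or D or 100 ng/mL A, B, C or D (adjusted p = 0.0564 to 0.138). The lymphocyte genes Cd3e and Cd79a had at most 5 counts in any library. The part of such cells in the falls of complement, class II and interferon genes was not tested. Of 9 epithelial genes 5 fell (55.6%, beside 20.6% of all genes) and 2 rose (22.2%, beside 19.9%). Among them Krt18 was lower (-1.85 ± 0.31, adjusted p = 0.000226) and Krt5 higher (1.06 ± 0.08, adjusted p = 1.34e-07). The 5 falls became 3 without any 1 of 100 ng/mL A, C, D or E.

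**Figure D4:**
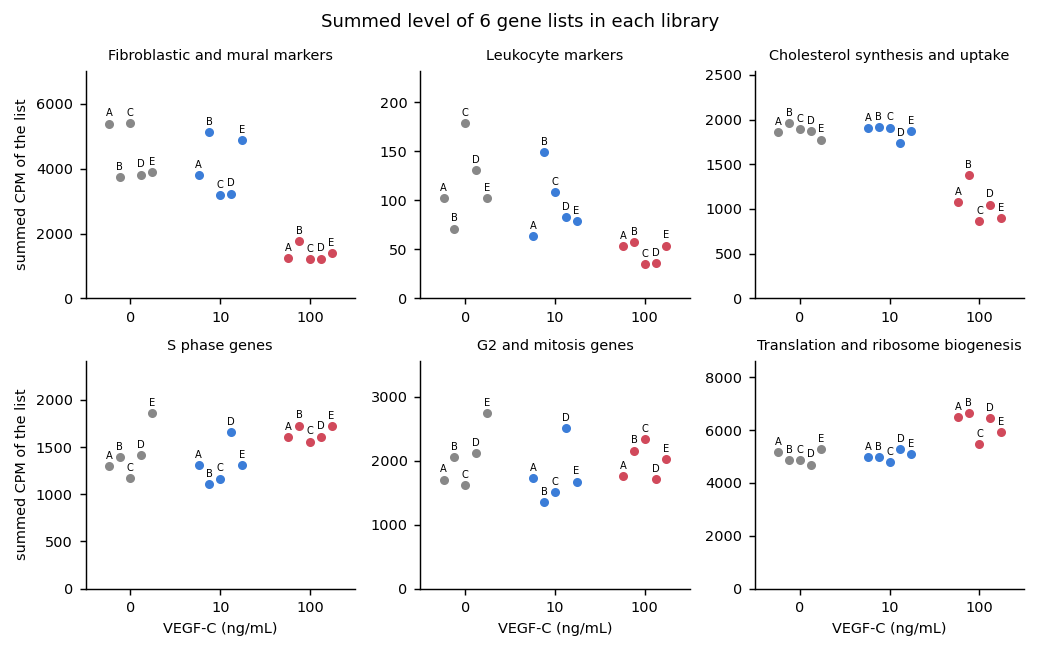
Summed CPM (vertical axes, from 0) of 6 gene lists in each library, by VEGF-C concentration in ng/mL (horizontal axes), with library letters above the points. The fibroblastic and mural and the cholesterol lists lie lower in every 100 ng/mL library than in any other, and library D is the highest 10 ng/mL library for S phase and for mitotic genes.

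Of 34 basement membrane genes 8 were higher (23.5%, beside 19.9% of all genes) and 11 lower (32.4%, beside 20.6%), with a median of -0.15. Without 100 ng/mL library D 7 were lower, a share at the level of all genes. Smoc2, a matricellular protein gene, fell from 69.7 ± 28.1 to 2.05 ± 1.58 CPM (-5.09 ± 0.50, adjusted p = 1.97e-06). Thbs1, which encodes the angiogenesis inhibitor thrombospondin-1, was at 4926, 6474, 3683, 2692 and 5937 CPM at 10 ng/mL and at 957, 1309, 829, 806 and 876 CPM at 100 ng/mL (-2.31 ± 0.25, adjusted p = 5.19e-06). Its groups did not overlap, and its fall was the largest of any called gene in mean CPM. Col18a1, the collagen gene that holds the endostatin fragment, rose from 1499.6 ± 108 to 2963 ± 514 CPM (0.98 ± 0.16, adjusted p = 0.000189). Among 19 integrin genes 4 rose (21.1%, close to the 19.9% of all genes) and 8 fell (42.1%, beside 20.6%), with a median of 0.07. The laminin receptor subunit gene Itga6 rose from 285 ± 44.9 to 774 ± 91.3 CPM (1.44 ± 0.11, adjusted p = 1.73e-07), and Itgb3, which pairs with the alpha-V chain, from 187 ± 32.4 to 422 ± 53.5 CPM (1.17 ± 0.12, adjusted p = 1.93e-06).

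Matrix proteases and their inhibitors rose in 14 of 37 cases and fell in 12 (median -0.13). Plau, the urokinase gene, was at 389, 367, 564, 481 and 366 CPM at 10 ng/mL and at 1779.7, 1365, 986, 1654 and 1351 CPM at 100 ng/mL (1.72 ± 0.17, adjusted p = 1.62e-06). Mmp14, the membrane collagenase gene, rose by 0.93 ± 0.09 (adjusted p = 2.23e-06). In the insulin-like growth factor system 8 of 18 genes rose and 5 fell (median 0.34). Pappa, which encodes a protease that frees the growth factor by cutting the binding protein of Igfbp4, was at 6.41, 7.76, 6.65, 3.05 and 6.88 CPM at 10 ng/mL and at 0.0623, 0.134, 0.393, 0.0365 and 0.370 CPM at 100 ng/mL. It fell 29.5-fold (-4.88 ± 0.42, adjusted p = 4.9e-07). Stc1, described above with the tip cell genes, encodes an inhibitor of that protease, and Igfbp4 rose by 0.96 ± 0.15 (adjusted p = 0.000115). Stc2, a relative of Stc1 on the same list, was among the 5 genes that fell.

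Feedback regulators of the ERK and PI3K routes rose in 12 of 25 cases and fell in 8 (median 0.30). Dusp6, a phosphatase gene that ERK induces, was at 136, 144, 143, 173 and 149 CPM at 10 ng/mL and at 252, 209.8, 286, 252 and 292 CPM at 100 ng/mL (0.79 ± 0.08, adjusted p = 3.89e-06). Spry4, a Sprouty inhibitor gene, rose by 1.21 ± 0.23 (adjusted p = 0.00063). Dusp10, a phosphatase gene for the stress kinases, and Irs2, an adaptor gene that FOXO factors induce, fell by 0.89 ± 0.08 (adjusted p = 1.08e-06) and 1.83 ± 0.21 (adjusted p = 8.66e-06). The Dusp and Sprouty families went both ways. Dusp4 and Spry1 were also among the 8 genes that fell, as was Phlda1, while Dusp1, Dusp2, Dusp7 and Spry2 were among the 12 that rose. Of 22 immediate early genes, measured at 72 h, 5 were higher (22.7%, close to the 19.9% of all genes) and 8 lower (36.4%, beside 20.6%), with a median of -0.08. Fos was at 65.4, 69.5, 70.9, 59.9 and 74.4 CPM at 10 ng/mL and at 7.94, 14.6, 12.3, 8.06 and 10.9 CPM at 100 ng/mL (-2.66 ± 0.19, adjusted p = 8.24e-08). Myc rose by 0.90 ± 0.13 (adjusted p = 6.9e-05) and Klf10 by 0.83 ± 0.15 (adjusted p = 0.000334). Of 18 calcineurin and NFAT genes 5 rose and 5 fell (median -0.11), each 27.8%, and the 5 falls became 3 without any 1 of 10 ng/mL B or E or 100 ng/mL A or D. Rcan1, a feedback inhibitor gene of calcineurin, rose by 1.15 ± 0.10 (adjusted p = 4.48e-07).

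Genes of DNA replication were modestly higher, with 16 of 43 S phase genes called higher and none lower (median 0.36). Mcm6, a subunit of the replicative helicase, was at 112, 100.18, 100.62, 125 and 114 CPM at 10 ng/mL and at 154, 169, 134, 149 and 154 CPM at 100 ng/mL (0.46 ± 0.09, adjusted p = 0.000641). Pcna, the polymerase clamp gene, rose by 0.45 ± 0.09 (adjusted p = 0.000966) and Pola2, a polymerase alpha subunit gene, by 0.43 ± 0.07 (adjusted p = 0.000118). The count depended on 1 library, since the summed S phase level was 1656 CPM in 10 ng/mL library D, 1108 to 1308 CPM in the other 4 and 1559 to 1728 CPM at 100 ng/mL. Without library D 36 of the 43 genes were called higher, and with 100 ng/mL B and unstimulated E left out as well 40 were. The same library weighed on the mitotic genes, with 1 of 42 called higher (Hjurp, 0.28 ± 0.11, adjusted p = 0.0498), 16 without library D and 21 without the 3 libraries. The Hjurp call itself was lost without 10 ng/mL A, B, C or E or 100 ng/mL C or E (adjusted p = 0.0758 to 0.116). Cdkn1c, a cell cycle inhibitor gene, fell by 1.88 ± 0.26 (adjusted p = 5.13e-05).

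Translation genes rose slightly, 14 of 28 with none lower (median 0.26), and 22 rose without 100 ng/mL library C. Pabpc1, the poly-A binding protein gene, went from 465 ± 53.9 to 708 ± 30.5 CPM (0.61 ± 0.09, adjusted p = 6.54e-05). Among 36 mitochondrial ribosome and respiratory chain genes 12 rose and 1 fell (median 0.08). Glycolysis genes rose in 3 of 22 cases and fell in 4 (median 0.10), both shares below those of all genes, with 5 higher without 10 ng/mL library D. The glucose transporter gene Slc2a1 fell from 415 ± 5.66 to 215 ± 47.4 CPM (-0.95 ± 0.11, adjusted p = 9.59e-06). Of 23 hypoxia response genes 6 rose (26.1%, beside 19.9% of all genes) and 10 fell (43.5%, beside 20.6%), with a median of -0.14. Epas1, the endothelial hypoxia factor gene, fell by 1.37 ± 0.13 (adjusted p = 1.09e-06), and Hilpda, a lipid droplet gene, rose by 1.21 ± 0.11 (adjusted p = 1.07e-06). Unfolded protein and amino acid stress genes fell in 9 of 26 cases and rose in 3 (median -0.19), Slc3a2, the heavy chain of amino acid transporters, by 0.86 ± 0.06 on the log2 scale (adjusted p = 1.11e-07).

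Junction genes rose in 13 of 28 cases and fell in 9 (median -0.10). Gja1, the connexin gene, rose from 184 ± 27.5 to 418 ± 23.4 CPM (1.18 ± 0.09, adjusted p = 1.9e-07), and Jup, which links cadherins to the cytoskeleton, from 273 ± 30.4 to 572 ± 67.1 CPM (1.07 ± 0.08, adjusted p = 2.56e-07). Of 7 Gimap genes, GTPases of lymphoid and endothelial cells clustered on chromosome 6, 6 rose and none fell (median 0.51). Gimap4 was at 49.6, 51.9, 62.4, 63.4 and 47.7 CPM at 10 ng/mL and at 251, 195, 142, 208 and 163 CPM at 100 ng/mL (1.80 ± 0.13, adjusted p = 1.33e-07), with no overlap.

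Of 17 blood endothelial markers 4 rose (23.5%, beside 19.9% of all genes) and 10 fell (58.8%, beside 20.6%), with a median of -0.95. Flow-responsive genes, which Klf2 and Edn1 belong to, rose in 9 of 24 cases and fell in 10 (median -0.29). Of 27 lysosomal genes 6 rose and 6 fell (median -0.02), each a share of 22.2% and close to that of all genes, with 11 higher without 100 ng/mL library B. Cell cycle inhibitors and p53 targets rose in 5 of 23 cases and fell in 5 (median -0.04), each 21.7% and likewise close, and the 5 falls became 3 without any 1 of 10 ng/mL A or C or 100 ng/mL A or D.

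In absolute abundance the largest gain among called genes was that of Vim, which encodes the filament protein vimentin. It was at 2266, 2469, 2438, 2989 and 2364 CPM at 10 ng/mL and at 6521, 5774, 4463, 6179.7 and 5355 CPM at 100 ng/mL (1.18 ± 0.11, adjusted p = 8.44e-07). Sparc, a collagen-binding protein gene, was called higher by 0.46 ± 0.12 (adjusted p = 0.00642) with overlapping groups. Ctsd, a lysosomal protease gene, was called higher (0.55 ± 0.17, adjusted p = 0.0203), a call lost without 100 ng/mL library C (adjusted p = 0.0547). The large losses, besides Thbs1, Csf1, Apoe, Cyr61 and Crim1, were in Il6st, the signalling receptor of the interleukin-6 family, from 2522 ± 412 to 537 ± 149.7 CPM (-2.23 ± 0.18, adjusted p = 3.52e-07), in Clu, a secreted chaperone gene, from 2005 ± 501 to 550.0 ± 186 CPM (-1.87 ± 0.25, adjusted p = 2.87e-05), and in Armcx4, from 1198 ± 152 to 135 ± 28.3 CPM (-3.15 ± 0.16, adjusted p = 1.61e-08). Among the 15 largest falls by fold, within the same limit on abundance, those not yet named were Fmo1 (a drug-oxidising enzyme gene), Art4, Tmtc1, Adamts18, Kank4, Ak5 and Cdh4. They fell by 4.33 to 4.95 on the log2 scale, with no overlap between the groups.

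The levels in unstimulated cells showed where 10 ng/mL stood. In few genes were the 5 libraries of each group clear of both other groups. Such genes numbered 54 with 10 ng/mL between the others in rising order and 18 in falling order, and 5 with 10 ng/mL beyond both. With library size alone as the scaling the first counts were 27 and 36. She, an adaptor gene of receptor tyrosine kinases, rose in order, from 41.8 ± 5.25 CPM without VEGF-C to 64.6 ± 9.18 CPM at the low and 237 ± 37.5 CPM at the high concentration. Tmem26 went from 2.06 ± 0.287 through 4.94 ± 1.66 to 59.6 ± 24.1 CPM, and the cell adhesion gene Pcdh17 from 2.68 ± 0.778 through 5.20 ± 1.18 to 29.3 ± 9.65 CPM. Kcne3 stepped from 0.625 ± 0.184 through 1.21 ± 0.301 to 74.1 ± 33.3 CPM. In each of these the step from 10 to 100 ng/mL was the larger. Tagln, a smooth muscle gene that overlaps other genes, fell in order from 400.2 ± 119.6 through 230.1 ± 27.9 to 22.3 ± 22.003 CPM. Hes1 was lowest at 10 ng/mL, with 29.2 ± 2.06 CPM in unstimulated cells, 21.7 ± 2.11 CPM at 10 ng/mL and 61.0 ± 7.39 CPM at 100 ng/mL. Ccdc186 and Trim44 were highest at 10 ng/mL by small margins, at 100.51 ± 4.64 and 146 ± 6.74 CPM there, 89.4 ± 4.66 and 136 ± 5.14 CPM in unstimulated cells and 74.0 ± 4.54 and 119 ± 6.77 CPM at 100 ng/mL.

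**Figure D5:**
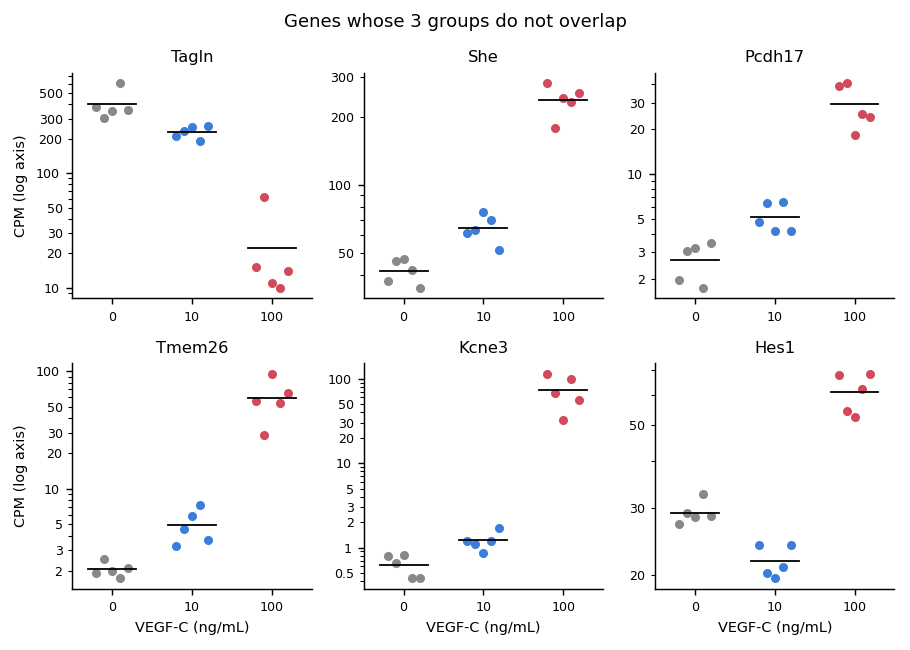
Abundance in CPM (vertical log axes) of 6 genes whose 3 groups do not overlap, by VEGF-C concentration in ng/mL (horizontal axes); points are libraries A to E from left to right and bars are group means. Tagln falls and She, Pcdh17, Tmem26 and Kcne3 rise in the order of the concentrations, with the larger step between 10 and 100 ng/mL, and Hes1 is lowest at 10 ng/mL.

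The 100 ng/mL libraries varied more among themselves than the 10 ng/mL libraries. For 13622 genes whose mean log2 CPM reached 1, the median SD of log2 CPM was 0.158 at 100 ng/mL and 0.111 at 10 ng/mL. Among called genes the widest spread was in Fgl2, a secreted fibrinogen-like protein gene, which was at 2.27, 1.14, 102, 3.65 and 22.3 CPM at 100 ng/mL and at 3.73 to 6.64 CPM at 10 ng/mL. Its groups overlapped, and its call (2.40 ± 0.90, adjusted p = 0.0443) was lost without 100 ng/mL library C (0.57, adjusted p = 0.481). It was also lost without any 1 of the 10 ng/mL libraries or 100 ng/mL E (adjusted p = 0.0601 to 0.0889), with only the 10 compared libraries (adjusted p = 0.0953) and by limma-voom (0.63, adjusted p = 0.618). Reln, given above, had the next widest spread, with its highest value in library C as well. Slc1a6, a glutamate transporter gene, and Cdhr1, a cadherin-related gene, were called lower (-2.64 ± 0.71, adjusted p = 0.00843, and -2.37 ± 0.65, adjusted p = 0.00943), and in both library B held the highest value of the 100 ng/mL group, at 2.5 and 4.34 CPM. The noncoding RNA gene Rian was called lower (-2.01 ± 0.67, adjusted p = 0.0266), a call lost without 10 ng/mL B or E or 100 ng/mL A or D (adjusted p = 0.0531 to 0.0697).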

How the data were processed

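RNA-seq of poly-A RNA was made with a stranded TruSeq kit from 15 libraries, 5 per group, grouped by the label of each table column. The authors deposited estimated counts and RPKM values per gene, per the file headers, and 64.3% of the estimated counts were not whole. Per the submitters' processing notes the tools were FastQC, Bowtie2 and limma with the mouse build GRCm38 (mm10). The sources used here give neither the counting tool nor its use of strand nor its treatment of shared reads, so near-identical and overlapping genes, among them Serpina3, Gbp, H2-Q, Gimap and Ifit3 copies, Fdft1, Ctsb, Bmp4, Bmp6, Dll4, Notch4, Reln, Kcne3, Abcc9, Nid2 and Tagln, have uncertain values. The deposited RPKM served for levels between genes and for 2 alternatives on log2(RPKM + 1) and log2(RPKM + 0.1). A length of 0 was deposited for 977 genes.

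Counts were rounded, filtered with filterByExpr and scaled by TMM. All 15 libraries were fitted with a term for group by edgeR 4.0.16 (quasi-likelihood, two-sided, R 4.3.3), and p-values were adjusted by Benjamini-Hochberg over 17650 genes and called under 0.05. Standard errors were the log2 fold change over the root of F. Coordinates came from GENCODE M21, which held 45143 of the 45706 gene IDs. Tested on simulated data for this comparison, over 17434 genes, the fit recovered 64.2% of genes changed 1.5-fold, 95.5% changed 2-fold and 100% changed 4-fold. It also called 11 genes that were left unchanged. Only 67, 67 and 66 genes were changed there, and the simulated spread depended on abundance alone and was the same in all groups. The real data held far more called genes and a wider spread at 100 ng/mL, so recovery in them may differ.

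The members and the 52 gene lists were chosen with earlier results of these data known. Genes were named by a rule: the 15 largest rises and falls by fold without overlap among genes whose mean log2 CPM reached 1, the 8 largest by mean CPM in each direction, the 3 called members of each list with the smallest p, 12 receptor, ligand and lineage genes, up to 6 genes in each order of the 3 groups, and the 5 called genes of widest spread at 100 ng/mL. Predicted gene models were not named, and a few genes that met the rule or belong to the lists are not reported here. Other genes named were chosen after their values were seen. Alternatives used DESeq2 1.42.0 and limma 3.58.1, other scalings and filters, a stricter threshold, the replicate letter as a block and each library left out. Leaving out 100 ng/mL B, 10 ng/mL D and unstimulated E together was chosen after seeing the data.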

Additional observations from a re-analysis of the deposited data

Results flagged for a closer look

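Of 386 groups of 5 libraries tested, over the genes named above at each concentration, 52 held a library far from the other 4, by the gap to its nearest neighbour over the range (Dixon's limit for 5 values). Chance alone gives such a library in about 1 in 20 groups, and genes that move together are not independent. Library B at 100 ng/mL accounted for 21 of them and library D at 10 ng/mL for 21. These are 2 of the libraries with the lowest scores on the second principal component. In each case below the CPM of the library is followed by the range of the other 4.

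Library D at 10 ng/mL lay above the other 4 libraries in Gja1 232 (others 164 to 180.4), Lyve1 272 (others 89.5 to 119), Orai2 35 (others 26.9 to 29.2) and Rcan1 40.6 (others 33.1 to 35.2) CPM. Values above the others in D at 10 ng/mL were also found for Sema4c 41.8 (others 25.8 to 29.8) and Vim 2989 (others 2266 to 2469) CPM. Library D at 10 ng/mL lay below the other 4 libraries in Art4 1.99 (others 6.13 to 6.92), Bmp4 623 (others 881 to 948), Crim1 1509 (others 2029 to 2192) and Csf1 1141 (others 1754 to 1856) CPM. Values below the others in D at 10 ng/mL were also found for Dnajb1 65.1 (others 70.9 to 72.9), Edn1 689 (others 1072 to 1141), Fmo1 8.79 (others 30.4 to 33.3) and H2-Q6 52.1 (others 74.9 to 83.9) CPM. Below the rest of the 10 ng/mL group, library D further held Hhex 140.2 (others 168 to 178), Idi1 18.8 (others 23.1 to 24.4), Irf8 44.6 (others 53.7 to 57.4) and Lcn2 75.9 (others 99.6 to 109) CPM. In the same library, D at 10 ng/mL, and again below the others, stood Msmo1 92.7 (others 112 to 119.8), Pappa 3.05 (others 6.41 to 7.76) and Tm7sf2 3.98 (others 4.75 to 5.04) CPM. Library B at 100 ng/mL lay above the other 4 libraries in Acta2 47.9 (others 7.85 to 17.1), Bmp4 164 (others 86.8 to 107), Cdhr1 4.34 (others 0.171 to 1.31) and Clu 871 (others 415 to 533) CPM. Values above the others in B at 100 ng/mL were also found for Cxcl1 4.04 (others 1.42 to 2.09), Cxcl12 67.5 (others 5.24 to 17.7), Cyr61 365 (others 76.6 to 147) and Foxc2 28.6 (others 23.9 to 25.1) CPM. Above the rest of the 100 ng/mL group, library B further held Idi1 11.3 (others 4.33 to 5.89), Krt18 31.3 (others 8.57 to 13.5), Lpar1 2.77 (others 0.541 to 1.09) and Msmo1 47.6 (others 23.1 to 27.9) CPM. In the same library, B at 100 ng/mL, and again above the others, stood Ripk2 24.9 (others 19.1 to 20.4), Sfrp5 0.568 (others 0.142 to 0.197), Slc1a6 2.5 (others 0.073 to 0.467) and Smoc2 4.77 (others 0.934 to 2.03) CPM. Library B at 100 ng/mL lay above the other 4 libraries in Tagln 61.4 (others 9.89 to 15) and Vwf 20.1 (others 1.45 to 3.57) CPM. Library B at 100 ng/mL lay below the other 4 libraries in Fabp5 59.9 (others 83.5 to 91.2), Flt4 1121 (others 1642 to 1758) and S1pr1 804 (others 1009.5 to 1079) CPM. Library C at 100 ng/mL lay above the other 4 libraries in Cdkn1c 2.26 (others 0.735 to 0.949), Fgl2 102 (others 1.14 to 22.3), Gbp5 23.3 (others 12.2 to 14.2) and Iigp1 71 (others 44.1 to 51.3) CPM. Library C at 100 ng/mL lay below the other 4 libraries in Dnajb1 55.6 (others 62.5 to 65.3) CPM. Library C at 10 ng/mL lay above the other 4 libraries in Flt1 297 (others 189 to 203) and Gbp9 104 (others 78.7 to 85.8) CPM. Library B at 10 ng/mL lay above the other 4 libraries in Rgs5 3.01 (others 0.896 to 1.18) CPM. Library E at 10 ng/mL lay below the other 4 libraries in Hspa1b 23.4 (others 32.9 to 36.5) CPM. Library A at 100 ng/mL lay above the other 4 libraries in Bmp6 55.3 (others 43.7 to 46.2) CPM.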

How the results depend on the processing

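Of 22 alternatives, none reversed a named gene that was called or a count of changed genes. Requiring at least 10 CPM in 5 libraries, which left fewer genes to test, gave 2312 genes higher, and 288 higher and 515 lower by at least 2-fold, 803 in all against 1941. On log2(RPKM + 1), a scale that shrinks low genes by construction, the 2-fold counts were 251 higher and 385 lower, 636 in all. With an adjusted p under 0.01, 13 lists instead of 22 had over 1 in 2 tested members called in 1 direction. With library size alone, genes in the order of the concentrations numbered 27 rising and 36 falling, against 54 and 18, and the cause was not tested. Leaving out 1 library at a time gave 6251 to 7581 changed genes, 3082 to 3784 higher and 3169 to 3797 lower, and 1820 to 2186 changed at least 2-fold. With 100 ng/mL B, 10 ng/mL D and unstimulated E all left out, 4022 genes were higher and 4082 lower. Of 177 named genes that were called, 164 kept their direction and call under every alternative in which they were tested. Named genes of low level, such as Bmp7 and Pappa, stayed under 10 CPM in every library. They were not tested under the 10 CPM filter, so that alternative says nothing about them. Medians changed sign under the 10 CPM filter for the lymphatic transcription factors (-0.16), protease and early response lists. The class II median did too, but 1 gene of that list was left to test there (0.0051), against 6 in the main fit (-0.77). Without a filter the sign changed for the integrins (-0.043). It also changed without single libraries for the lysosomal, cell cycle inhibitor, RNA quality and fatty acid lists, whose medians lay near 0 there. The letters of the libraries did not pair the groups: the correlations of same-letter deviations were 0.018, -0.026, 0.043, 0.050 and 0.13. Each 100 ng/mL library correlated best with a 10 ng/mL library of another letter: A with C (0.42), B with D (0.43), C with E (0.21), D with A (0.26) and E with B (0.39). A pairing of the libraries under other letters was not tested. With the replicate block 3197 genes were higher and 3385 lower. The DESeq2 test gave 3527 higher and 3775 lower. The number of libraries and their total counts limit what small changes can be called.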
